A study of Mus musculus with 4 samples.

Results

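Sterol and fatty acid synthesis genes were examined in mouse CD8+ T cells taken from B16-GP33 tumours on day 21 after tumour implantation. The list held 38 genes of cholesterol synthesis, its SREBP control, fatty acid synthesis, desaturation, elongation and activation, and sterol export. All 38 symbols were found among the 24537 genes of the table, and the 30 whose mean over the 4 libraries reached 1 FPKM were used, out of 9810 genes that met this minimum. FPKM is the number of sequenced tags scaled to the length of the exons and to the total tags of the library. The member just inside the minimum was Tm7sf2, with a mean of 1.13 FPKM, and the one just outside was Elovl6, with 0.786 FPKM. The samples were 2 libraries labelled EV and 2 labelled ACSS2NLS. The labels give no wording for EV, and the columns of the table call these libraries Acss2WT and the others Acss2OE. The enzyme ACSS2 turns acetate into acetyl-CoA, and NLS commonly stands for a nuclear localisation signal. All cells were labelled CD8+ and had grown in mice with the same tumour, a melanoma line that carries an epitope recognised by CD8+ T cells. Mouse strain, age, sex and the number of animals per library are not given in the sources used here. Without a group that had more ACSS2 but no signal, the amount of the enzyme and its place in the cell cannot be told apart.

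Cholesterol and fatty acids are both built from acetyl-CoA. Their enzymes are controlled by the sterol regulatory element binding proteins SREBP1 and SREBP2, which lie in the endoplasmic reticulum with the escort protein SCAP. INSIG proteins hold SCAP back when sterols are plentiful. When sterols run low the complex moves to the Golgi, the SREBP is cut free, and its released part enters the nucleus and switches on these genes. In the opposite state, oxysterols activate the LXR receptors, which induce the export pumps ABCA1 and ABCG1. T cells that are activated and divide are known to raise this synthesis to make membrane.

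Acss2 was at 3.66 and 3.92 FPKM in the EV libraries and at 80.7 and 86.3 FPKM in the ACSS2NLS libraries, so its level matched the labels. It rose by a log2 change of 4.14 ± 0.11 (SE, n = 2 per group; limma-trend, adjusted p = 0.000931). Log2 changes here are differences in mean log2(FPKM + 1), ACSS2NLS minus EV, and on this scale the change of low genes is understated. The libraries held 46000000 to 49300000 tags, to the nearest 100000. The 8 CD8 T cell markers, Cd8a and Cd3e among them, summed to 2221 and 1843 FPKM in EV replicates 1 and 2. In ACSS2NLS replicates 1 and 2 they summed to 2069 and 1627 FPKM, so replicate 2 was the lower in each group. Transcripts of other tumour cells were also present. The 14 macrophage and myeloid markers, all in the table and 13 of them above the minimum, summed to 53.2 FPKM in EV replicate 1, 400 in EV replicate 2, 144 in ACSS2NLS replicate 1 and 630 in ACSS2NLS replicate 2, and of these S100a9 was at 0 in ACSS2NLS replicate 1. The 10 melanoma markers, 6 of them above the minimum, summed to 5.62 and 39.4 FPKM in EV, against 12.0 and 141 FPKM in ACSS2NLS, with Gpr143 at 0 in ACSS2NLS replicate 1. The macrophage and the melanoma sum were both lowest in EV replicate 1 and highest in ACSS2NLS replicate 2. Of the 14 macrophage and myeloid markers, 11 were highest in ACSS2NLS replicate 2. The others, Cd14, S100a8 and S100a9, were highest in EV replicate 2, at 29.1, 24.4 and 24.1 FPKM. In ACSS2NLS replicate 2 these were at 5.04, 0.802 and 0.401 FPKM. In bulk samples such as these, fewer cells of a type and less RNA per cell cannot be told apart.

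The enzymes of cholesterol synthesis were slightly higher on balance in ACSS2NLS, the fatty acid genes followed single libraries, and no member passed the test. The desaturase gene Scd2 and the sterol pump gene Abcg1 had the largest differences, at 1.69-fold and 1.74-fold in mean FPKM. Of the 30 members, 21 had a higher and 9 a lower mean in ACSS2NLS, and their median log2 change was 0.098, against 0.015 for all 9810 genes, of which 53.2% were higher. This median depended on the library: without ACSS2NLS replicate 2 it was 0.017 with 17 of 30 higher, against -0.021 for all genes, and without ACSS2NLS replicate 1 it was 0.18 with 25 higher. Leaving out EV replicate 1 or 2 gave 0.080 and 0.15. Of all genes, 46.7% were higher without ACSS2NLS replicate 2 and 56.1% without ACSS2NLS replicate 1. At an adjusted p of 0.05 (limma-trend, Benjamini-Hochberg over all genes) 0 members passed in either direction, where 0.0204% of all genes passed upward, namely Acss2 and its antisense neighbour Acss2os, and 0% downward. Acss2os was at 1.08 and 0.974 FPKM in EV and at 28.8 and 32.2 FPKM in ACSS2NLS. The kit is not given as keeping strand, and whether reads of Acss2 were counted for Acss2os was not tested. At an unadjusted p of 0.05 there were 2 members higher and 0 lower, against 3.10% and 2.87% of all genes. The smallest adjusted p among the members was 0.81. With 2 libraries a group the fit detects mainly large differences, so a gene that did not pass is not shown to be unchanged. Both ACSS2NLS libraries lay above both EV libraries for 10 members and below them for 1, where all genes gave 19.3% above and 18.1% below. Because the members were chosen with earlier results of these data known, the list as a whole was not tested. The smallest two-sided p that exact permutation of 2 against 2 libraries can reach is 0.333.

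**Figure D1:**
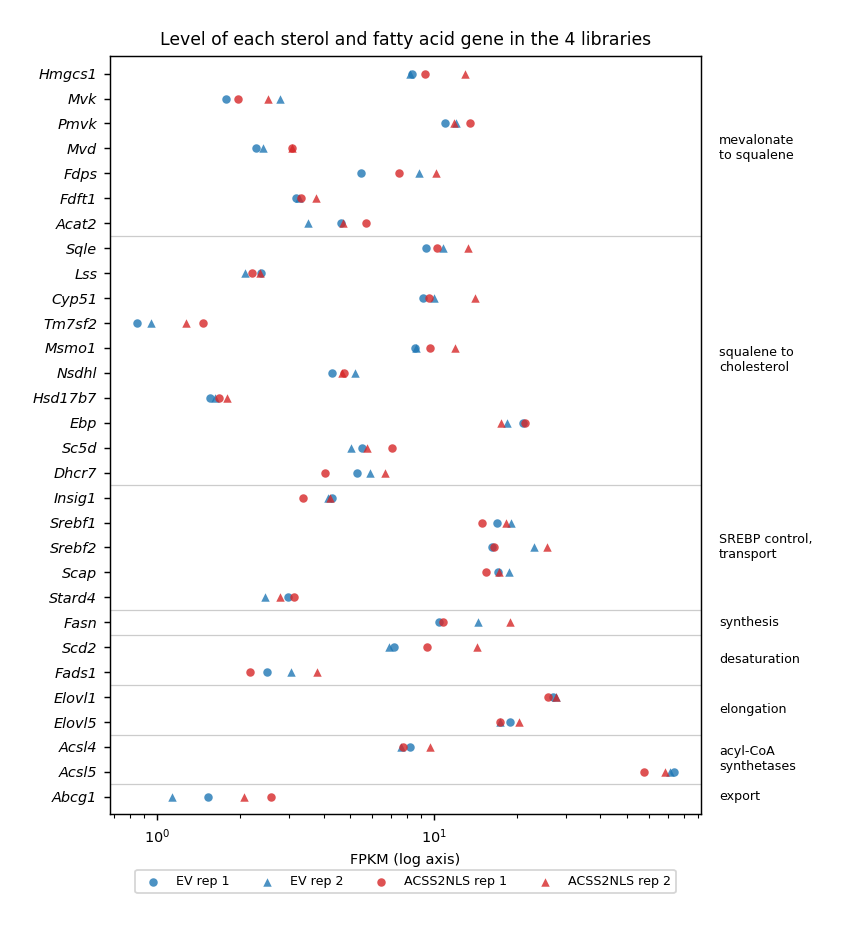
Level of the 30 genes used, by role, on a logarithmic FPKM axis; each point is 1 library, blue for EV and red for ACSS2NLS, circles for replicate 1 and triangles for replicate 2. Acsl5 is the highest, at 57.8 to 74.2 FPKM, and Tm7sf2 the lowest, at 0.845 to 1.47 FPKM.

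The levels per length differed widely between the members, as the plot of levels by role shows. The highest was Acsl5, which couples long-chain fatty acids to coenzyme A, at a mean of 72.9 FPKM in EV. Next came Elovl1, an elongase of very long chains, at 27.3 FPKM in EV. The regulators Srebf1, Srebf2 and Scap had EV means of 18.05, 19.6 and 17.9 FPKM, and Ebp was the only sterol enzyme with an EV mean as high as theirs. Insig1, also a control gene, and Stard4, a carrier of cholesterol, lay at 4.23 and 2.72 FPKM. Among the sterol enzymes Ebp was the highest, at an EV mean of 19.7 FPKM, and Mvk, Lss, Hsd17b7 and Tm7sf2 lay below 3 FPKM in every library. The values of Tm7sf2 rested on 57 to 105 tags a library and those of Mvd on 183 to 262, while Acsl5 had 8818 to 11041, so counting error weighs most on the lowest members.

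Of the 17 enzymes on the way to cholesterol, 13 were higher in mean in ACSS2NLS and 4 were lower, and the median log2 change was 0.20; under quantile normalization 11 of 17 were higher, with the same median to 2 decimals. The groups did not overlap for 8 of them, all higher in ACSS2NLS, and for 0 in the other direction, while all genes gave 19.3% and 18.1%. The members were chosen with earlier results of these data known, so this contrast with all genes is not a test. The differences were small: they ranged from -0.077 for Dhcr7 to 0.37 for Hmgcs1, and none passed. With a pseudocount of 0.1 in place of 1 the highest was Tm7sf2, at 0.55 where it had 0.32, against 0.40 for Hmgcs1. At least 13 were higher whichever library was left out, but the median depended on the library. Without ACSS2NLS replicate 2, the library with the most macrophage and melanoma transcripts, 14 of 17 were higher with a median of 0.095. Without EV replicate 1, which had the fewest, 13 were higher with a median of 0.093. Leaving out EV replicate 2 gave 14 higher with a median of 0.19, and leaving out ACSS2NLS replicate 1 gave 15 with 0.18. Of all genes, 46.7% were higher without ACSS2NLS replicate 2 and 56.1% without ACSS2NLS replicate 1. The share was 50.9% without EV replicate 1 and 53.2% without EV replicate 2.

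Hmgcs1, the synthase that makes HMG-CoA at the start of the mevalonate pathway, was at 8.37 and 8.22 FPKM in EV, compared with 9.29 and 12.97 FPKM in ACSS2NLS. Both ACSS2NLS libraries were above both EV libraries, and replicate 2 stood well above replicate 1. The log2 change was 0.37 ± 0.18 (SE, n = 2 per group; limma-trend, adjusted p = 0.81), and it was 0.15 without ACSS2NLS replicate 2. Mvd, which decarboxylates mevalonate pyrophosphate, moved least of the early enzymes when a library was left out. It was at 2.28 and 2.42 FPKM in EV, against 3.07 and 3.09 FPKM in ACSS2NLS, a difference larger than the gap between replicates in either group. Its log2 change was 0.28 ± 0.15 (limma-trend, adjusted p = 0.81), and it stayed between 0.25 and 0.32 whichever library was left out.

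The other early enzymes gave smaller or less even differences. Fdps, which makes farnesyl pyrophosphate, was at 5.45 and 8.84 FPKM in EV, compared with 7.51 and 10.2 FPKM in ACSS2NLS, so the groups overlapped and the gap between replicates exceeded the gap between groups. Acat2, the cytosolic thiolase that joins acetyl-CoA units, was at 4.62 and 3.53 FPKM in EV, against 5.71 and 4.72 FPKM in ACSS2NLS, with no overlap and its highest value in replicate 1. Of the 50-base windows of Acat2, 45.9% also occur in its neighbour Acat3, so its reads cannot be assigned with certainty; Acat3 was at 5.56 to 6.16 FPKM in the 4 libraries. Fdft1, which makes squalene, lay at 3.17 and 3.25 FPKM in EV, compared with 3.32 and 3.75 FPKM in ACSS2NLS. Fdps and Fdft1 share 11.7% and 10.9% of their windows with other transcripts. Pmvk, a mevalonate kinase step, was at 11.0 and 12.1 FPKM in EV, against 13.5 and 11.9 FPKM in ACSS2NLS. Mvk, the kinase before it, had a log2 change of -0.0027, and both its low values were in replicate 1 of each group, at 1.77 and 1.96 FPKM.

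Among the steps from squalene to cholesterol, 7 of 10 had a higher mean and the median log2 change was 0.14. Msmo1, which removes methyl groups from the sterol nucleus, was at 8.53 and 8.66 FPKM in EV, compared with 9.70 and 11.96 FPKM in ACSS2NLS. The EV libraries were nearly equal and both ACSS2NLS libraries were above them, with a log2 change of 0.30 ± 0.14 (limma-trend, adjusted p = 0.81) that was 0.16 without ACSS2NLS replicate 2. Tm7sf2, a sterol reductase, was at 0.845 and 0.954 FPKM in EV, against 1.47 and 1.27 FPKM in ACSS2NLS. This was a 1.52-fold difference with a log2 change of 0.32 ± 0.17 (limma-trend, adjusted p = 0.81), and here replicate 1 was the higher of the ACSS2NLS pair. Sc5d, the sterol desaturase near the end of the pathway, was at 5.50 and 5.02 FPKM in EV, against 7.08 and 5.75 FPKM in ACSS2NLS. Its replicate 1 was also the higher of the ACSS2NLS pair. Hsd17b7, a sterol ketone reductase, was at 1.56 and 1.62 FPKM in EV, against 1.67 and 1.80 FPKM in ACSS2NLS, so its groups were separate by a narrow margin, and its log2 change of 0.076 turned to -0.0066 under quantile normalization.

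Sqle, the squalene epoxidase that is a control point of the pathway, was at 9.37 and 10.8 FPKM in EV, compared with 10.2 and 13.3 FPKM in ACSS2NLS. Cyp51, the lanosterol demethylase, was at 9.11 and 10.04 FPKM in EV, against 9.60 and 14.1 FPKM in ACSS2NLS. In both genes ACSS2NLS replicate 1 lay between the EV libraries and only replicate 2 was above them. Without replicate 2 the log2 changes went from 0.20 to 0.024 for Sqle and from 0.26 to 0.0043 for Cyp51. Dhcr7, which catalyses the last reduction on one branch, was at 5.28 and 5.87 FPKM in EV, compared with 4.05 and 6.68 FPKM in ACSS2NLS, so the ACSS2NLS libraries held both its lowest and its highest value. Lss, Nsdhl and Ebp, which close the ring, remove a carboxyl group and shift a double bond, had log2 changes of 0.025, -0.0043 and -0.023. Their groups overlapped.

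The promoters of the 2 members with the smallest unadjusted p in each part of the sterol pathway are shown here, because SREBPs are known to bind such promoters together with NF-Y and Sp1. RefSeq promoters (GRCm38.p6, the mm10 assembly) were found for 23 of the 30 members, and Abcg1, Fads1, Fdft1, Fdps, Scd2, Sqle and Stard4 had no entry. Each line gives the 250 bases before the start of transcription, 5′ to 3′ on the strand of the gene. The capitals mark matches on either strand to TCACNCCAC, a sterol regulatory element, to TCACGTGA, an E-box form, to CCAAT, the NF-Y box, and to GGGCGG, the Sp1 box. Hmgcs1 lies at chr13:119690101-119690350 (plus strand), Mvd at chr8:122443423-122443672 (minus strand), Msmo1 at chr8:64733579-64733828 (minus strand) and Tm7sf2 at chr19:6067851-6068100 (minus strand). In all 4 the start was that of the transcript counted by the authors.
Hmgcs1: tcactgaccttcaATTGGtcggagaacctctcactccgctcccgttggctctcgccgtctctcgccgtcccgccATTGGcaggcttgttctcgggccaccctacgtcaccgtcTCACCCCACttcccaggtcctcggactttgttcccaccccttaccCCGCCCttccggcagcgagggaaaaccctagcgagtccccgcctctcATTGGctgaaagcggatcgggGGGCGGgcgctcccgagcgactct
Mvd: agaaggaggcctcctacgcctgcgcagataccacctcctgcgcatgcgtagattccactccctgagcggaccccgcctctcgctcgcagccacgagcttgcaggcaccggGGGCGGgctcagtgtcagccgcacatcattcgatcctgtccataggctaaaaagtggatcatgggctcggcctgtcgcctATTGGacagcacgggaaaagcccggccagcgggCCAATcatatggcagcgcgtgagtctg
Msmo1: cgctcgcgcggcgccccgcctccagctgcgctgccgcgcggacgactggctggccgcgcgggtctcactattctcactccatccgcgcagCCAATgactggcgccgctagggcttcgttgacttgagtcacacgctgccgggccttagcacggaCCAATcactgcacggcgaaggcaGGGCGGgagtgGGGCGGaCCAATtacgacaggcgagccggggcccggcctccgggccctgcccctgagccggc
Tm7sf2: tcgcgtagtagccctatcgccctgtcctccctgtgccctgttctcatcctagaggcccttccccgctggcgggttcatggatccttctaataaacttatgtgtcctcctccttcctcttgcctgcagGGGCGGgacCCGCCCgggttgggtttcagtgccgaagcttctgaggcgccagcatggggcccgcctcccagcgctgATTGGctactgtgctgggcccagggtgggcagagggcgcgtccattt
The Hmgcs1 window held 1 TCACNCCAC match and 3 CCAAT boxes. Mvd held 2 CCAAT boxes, Msmo1 held 3 and Tm7sf2 held 1. Over the 23 members with a promoter, CCAAT was found in 20, or 87.0%, where 40.6% of the 7496 tested genes in the table had it. GGGCGG was found in 19 members, or 82.6%, against 64.7% of tested genes. TCACNCCAC was found in 1 member, Hmgcs1, against 1.28% of tested genes, and TCACGTGA in 0, against 2.11%. A match of letters is not a binding site, and no factor binding was measured in these data.

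Of the 5 genes of SREBP control and sterol transport, 2 were higher and 3 lower in mean. Their median log2 change was -0.11, and the groups overlapped in all 5. The direction turned with 1 library: without ACSS2NLS replicate 1, 3 of 5 were higher and the median was 0.020, where 56.1% of all genes were higher. Insig1, itself a target of SREBP that holds the complex back, was at 4.30 and 4.16 FPKM in EV, against 3.38 and 4.22 FPKM in ACSS2NLS. ACSS2NLS replicate 1 was below the other 3 libraries, which were alike, and the log2 change was -0.13 ± 0.16 (limma-trend, adjusted p = 0.891). Scap, the escort, was at 17.02 and 18.8 FPKM in EV, compared with 15.5 and 17.3 FPKM in ACSS2NLS, with a log2 change of -0.12 ± 0.12 (limma-trend, adjusted p = 0.872). Its 95% interval of -0.43 to 0.19 leaves room for a difference of either sign.

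Srebf1, which encodes the SREBP1 isoforms that favour fatty acid genes, was at 17.0 and 19.1 FPKM in EV, against 15.0 and 18.3 FPKM in ACSS2NLS. Srebf2, which encodes the SREBP2 that favours sterol genes, was at 16.2 and 23.0 FPKM in EV, compared with 16.6 and 25.6 FPKM in ACSS2NLS. Replicate 2 of each group was the high one for both genes, and for Srebf2 the gap between replicates exceeded the difference between groups in either group. The change of Srebf2 was 0.089 with all libraries and -0.21 without ACSS2NLS replicate 2. Stard4, a cytosolic carrier of cholesterol, was at 2.97 and 2.46 FPKM in EV, against 3.12 and 2.78 FPKM in ACSS2NLS. The table does not measure SREBP cleavage, so the activity of the proteins is not seen in these values.

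**Figure D2:**
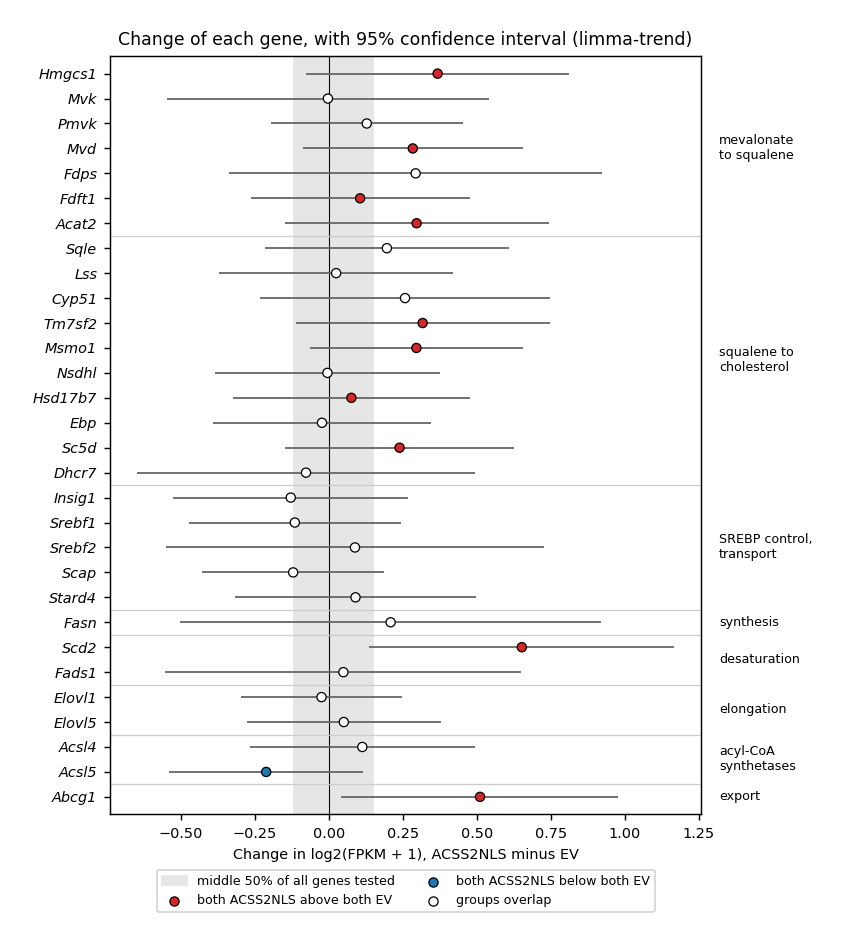
Change of each gene in log2(FPKM + 1), ACSS2NLS minus EV, with its 95% confidence interval from limma-trend; red points mark genes with both ACSS2NLS libraries above both EV libraries, the blue point the reverse, white points overlapping groups, and the grey band the middle 50% of all 9810 genes. The unadjusted intervals of Scd2 and Abcg1 lie above 0, at 0.14 to 1.17 and 0.043 to 0.98, and those of the other 28 genes include 0.

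Scd2 (NM_009128; mm10 chromosome 19, 44293676 to 44306862, plus strand), which puts the first double bond into saturated fatty acids and is a form found outside the liver, had the largest log2 change of the list with all libraries and a pseudocount of 1. With a pseudocount of 0.1 it had 0.71, against 0.76 for Abcg1, and without ACSS2NLS replicate 2 it had 0.37, against 0.62 for Abcg1 and 0.41 for Acat2. Scd2 was at 7.18 and 6.92 FPKM in EV, compared with 9.44 and 14.3 FPKM in ACSS2NLS. Both ACSS2NLS libraries were above both EV libraries, and replicate 2 was the highest by a wide margin. The log2 change was 0.65 ± 0.21 (SE, n = 2 per group; unadjusted p = 0.0218 in limma-trend, adjusted p = 0.81). Without any single library other than ACSS2NLS replicate 2 it lay between 0.63 and 0.93. Scd2 was highest in ACSS2NLS replicate 2, where the summed macrophage and melanoma markers were also highest, at 630 and 141 FPKM. In ACSS2NLS replicate 1, where Scd2 was the next highest, they were at 144 and 12.0 FPKM. In EV replicate 1 they were at 53.2 and 5.62 FPKM. In EV replicate 2, where Scd2 was lowest, they were at 400 and 39.4 FPKM. The part of other cells in the difference of Scd2 between groups was not tested. Its sister gene Scd1, of which Scd2 shares 2.68% of its 50-base windows, was under the minimum, at 0.054 to 0.266 FPKM.

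The remaining fatty acid genes varied with the library more than with the group. Of the 7 measured genes of synthesis, desaturation, elongation and activation, with Scd2 counted, 5 were higher in mean. The median log2 change of the 7 was 0.051, and 6 of them had their highest value in ACSS2NLS replicate 2, against 33.7% of all genes. Without that library 1 of 7, Scd2, was higher and the median was -0.071, against 46.7% of all genes higher with a median of -0.021. Without EV replicate 1 the median of the 7 was -0.0047 with 3 of 7 higher, against 50.9% of all genes. Without ACSS2NLS replicate 1 it was 0.26 with 6 of 7 higher, against 56.1% of all genes. Fasn, the synthase that builds palmitate, was at 10.5 and 14.4 FPKM in EV, against 10.8 and 18.9 FPKM in ACSS2NLS. Its replicates 1 were alike in both groups and its replicates 2 were high in both, so its log2 change of 0.21 ± 0.28 (limma-trend, adjusted p = 0.903) was smaller than its gap between replicates, and it was -0.17 without ACSS2NLS replicate 2. Fads1, the desaturase of polyunsaturated chains, was at 2.502 and 3.05 FPKM in EV, compared with 2.18 and 3.78 FPKM in ACSS2NLS, with the same high replicate 2. Its log2 change was 0.049 ± 0.24 (limma-trend, adjusted p = 0.981).

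The elongases differed little between the groups. Elovl1 was at 26.9 and 27.7 FPKM in EV, against 25.9 and 27.8 FPKM in ACSS2NLS, a log2 change of -0.024 with a 95% interval of -0.30 to 0.25. Elovl5, which lengthens polyunsaturated chains, was at 18.8 and 17.4 FPKM in EV, compared with 17.3 and 20.4 FPKM in ACSS2NLS, a log2 change of 0.051 with an interval of -0.28 to 0.38. Both intervals include 0 and leave room for a moderate difference of either sign.

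Acsl5 was the single member whose ACSS2NLS libraries both lay under the EV libraries. It was at 74.2 and 71.6 FPKM in EV, against 57.8 and 68.3 FPKM in ACSS2NLS, and the EV libraries were much closer to each other than the ACSS2NLS libraries were. The log2 change was -0.21 ± 0.13 (limma-trend, adjusted p = 0.822), and it was -0.092 without ACSS2NLS replicate 1. Acsl4, which activates arachidonic acid, was at 8.24 and 7.60 FPKM in EV, compared with 7.72 and 9.67 FPKM in ACSS2NLS, with overlapping groups and a log2 change of 0.11 ± 0.15 (limma-trend, adjusted p = 0.902).

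Abcg1 (NM_009593; mm10 chromosome 17, 31057694 to 31117981, plus strand), the pump that moves cholesterol out of the cell, was the member with the highest fold. It was at 1.53 and 1.13 FPKM in EV, against 2.58 and 2.06 FPKM in ACSS2NLS, or 408 and 324 tags against 731 and 577. Both ACSS2NLS libraries were above both EV libraries, and the difference exceeded the gap between replicates in either group. The log2 change was 0.51 ± 0.19 (unadjusted p = 0.0373 in limma-trend, adjusted p = 0.81), and it ranged from 0.39 to 0.63 with 1 library left out. In each group replicate 1 was the higher, and the summed macrophage and melanoma markers were higher in replicate 2. The part of other cells in the difference between groups was not tested. Abca1, the other pump, went the other way between replicates: it was under the minimum, at 0.079 and 0.976 FPKM in EV, compared with 0.151 and 1.39 FPKM in ACSS2NLS, with both replicates 2 high.

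**Figure D3:**
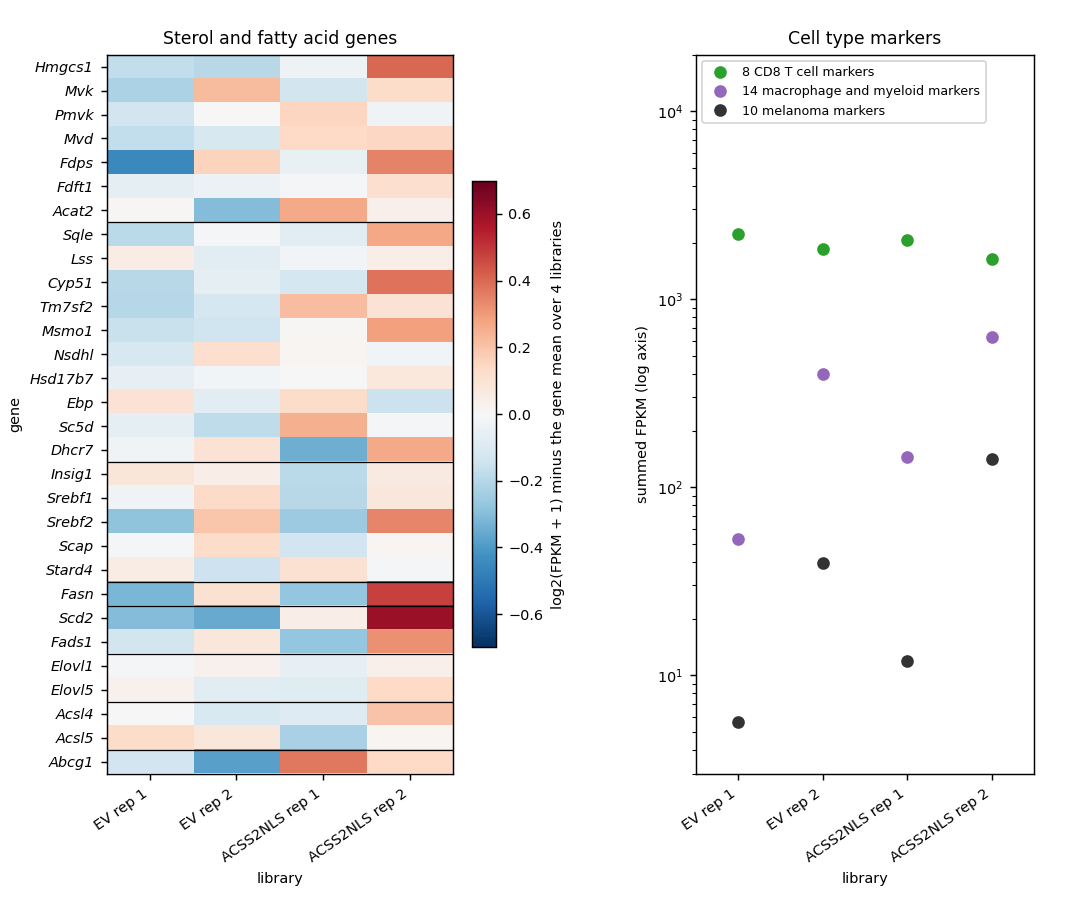
Left, level of each gene in each library as log2(FPKM + 1) minus the mean of the gene over the 4 libraries, red for above and blue for below. Right, summed FPKM of 3 marker lists in the same libraries on a logarithmic axis; ACSS2NLS replicate 2 has the most red on the left and the highest macrophage and melanoma sums, 630 and 141 FPKM, on the right.

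A single library held most of the high values. Of the 30 members, 16 had their highest value in ACSS2NLS replicate 2, where 33.7% of all genes had theirs, and 7 in ACSS2NLS replicate 1, where 24.3% had theirs. EV replicate 1 was lowest for 13 members, against 27.3% of all genes. The median level of the members, relative to the mean of each gene, was -0.090 in EV replicate 1, -0.030 in EV replicate 2, -0.044 in ACSS2NLS replicate 1 and 0.12 in ACSS2NLS replicate 2. All genes had -0.0098, -0.00040, -0.027 and 0.031 in the same order. For 5 members, Cyp51, Sqle, Fdps, Srebf2 and Fasn, the 4 libraries stood in the order of the summed macrophage markers, against 8.81% of all genes; this order was chosen after the values were seen. The difference between groups exceeded the gap between replicates in both groups for 6 members, Mvd, Tm7sf2, Msmo1, Hsd17b7, Scd2 and Abcg1, against 25.1% of all genes.

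**Figure D4:**
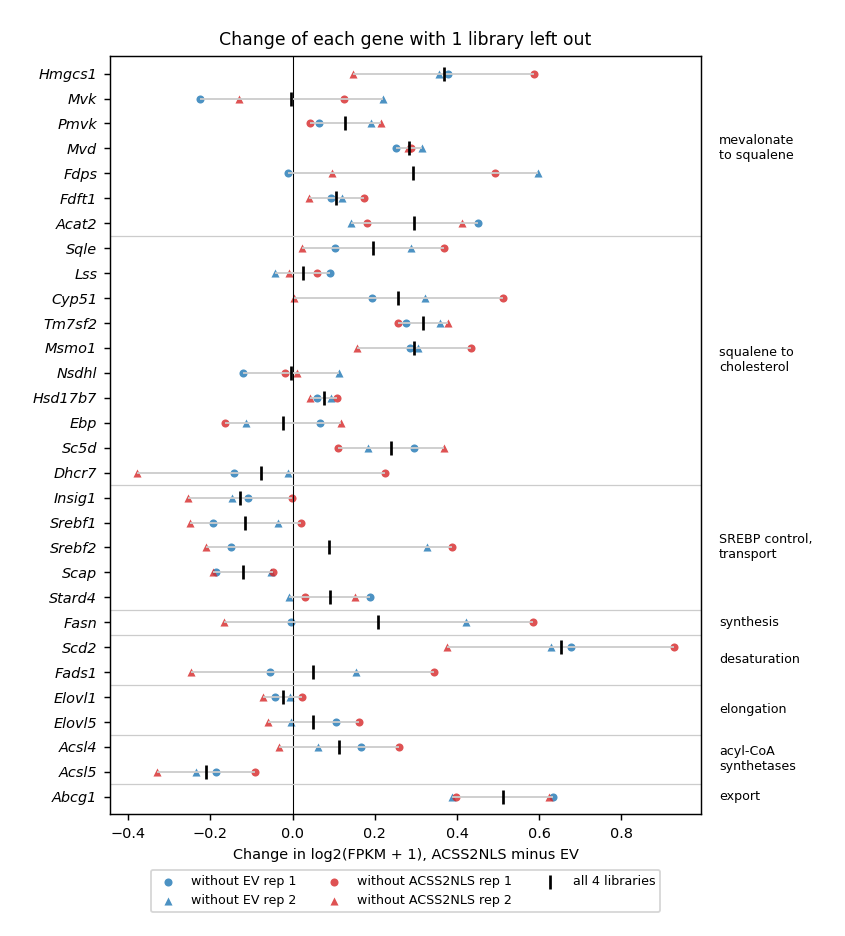
Change of each gene in log2(FPKM + 1), ACSS2NLS minus EV, with all 4 libraries (black bars) and with each library left out in turn (symbols named in the legend); grey lines span the 4 values. Mvd and Tm7sf2 move little, while Fasn runs from -0.17 to 0.58 and Dhcr7 from -0.38 to 0.23.

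The 8 members under the minimum were Abca1, Acaca, Me1, Acsl3, Fads2, Elovl6, Idi1 and Scd1. Acaca, the carboxylase that commits acetyl-CoA to fatty acid synthesis, was at 0.388 and 0.350 FPKM in EV, against 0.381 and 0.661 FPKM in ACSS2NLS. Fads2, the partner desaturase of Fads1, was at 0.044 and 0.598 FPKM in EV, compared with 0.123 and 1.30 FPKM in ACSS2NLS. Acsl3, an acyl-CoA synthetase of lipid droplets, was at 0.045 and 0.30 FPKM in EV, against 0.310 and 0.974 FPKM in ACSS2NLS. Of the 8, 3 stood in the library order of the summed macrophage markers, Abca1, Me1 and Fads2, against 8.81% of all genes above the minimum. Me1 had only 2, 18, 13 and 37 tags in EV replicates 1 and 2 and ACSS2NLS replicates 1 and 2. Fads2 had 3, 44, 9 and 94, so counting error weighs heavily on their order. Idi1, which isomerises the isoprenoid unit, was at 0.411 and 0.383 FPKM in EV, compared with 0.609 and 0.521 FPKM in ACSS2NLS, with 54 to 85 tags. Elovl6 lay between 0.731 and 0.902 FPKM in the 4 libraries, and Me1, which makes NADPH, between 0.013 and 0.236 FPKM.

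The other lipid genes were near balance. A further list of 67 lipid genes, Acss2 not counted, covered supply, transport, storage and oxidation. It also held genes of synthesis and SREBP control, such as Lbr, Tecr, Insig2 and Mbtps1. Of these 67, 45 were measured, with 24 higher and 21 lower in mean. The median log2 change of the 45 was 0.021. It was -0.0070 under quantile normalization. Without ACSS2NLS replicate 2 it was -0.082 with 13 higher, against 46.7% of all genes. Without ACSS2NLS replicate 1 it was 0.080 with 26 higher, against 56.1% of all genes. Without EV replicate 1 or 2 it was 0.047 and 0.0065. The difference from the sterol enzymes was not tested. With limma-trend 0 passed over all genes. At an unadjusted p of 0.05 there were 1 higher and 1 lower, against 3.10% and 2.87% of all genes. The groups did not overlap for 3 upward and 7 downward, where all genes gave 19.3% and 18.1%. Cd36, a fatty acid receptor, was at 0.225 and 0.798 FPKM in EV, against 1.37 and 5.41 FPKM in ACSS2NLS (log2 change 1.39 ± 0.49; limma-trend, adjusted p = 0.81), with replicate 2 far above replicate 1. Macrophages also express Cd36, and the part of their transcripts in this difference was not tested. Acsbg1, an acyl-CoA synthetase, was at 7.58 and 7.67 FPKM in EV, compared with 5.76 and 5.87 FPKM in ACSS2NLS (log2 change -0.34 ± 0.13; limma-trend, adjusted p = 0.81).

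Mcat and Acss1, both of mitochondrial acyl and acetyl supply, had log2 changes of -0.23 and -0.19, and in neither gene did the groups overlap. Lrpap1, a chaperone of lipoprotein receptors, had -0.18 in the same way. Mylip, an LXR target that marks lipoprotein receptors for breakdown, was at 0.834 and 0.976 FPKM in EV, against 1.32 and 1.27 FPKM in ACSS2NLS (log2 change 0.27 ± 0.17). Acly, which makes acetyl-CoA from citrate, was at 46.0 and 47.2 FPKM in EV, compared with 39.0 and 48.4 FPKM in ACSS2NLS, with overlapping groups (log2 change -0.10 ± 0.14). None of these passed the test.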

How the data were processed

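Per the labels' protocols, the RNeasy Plus Micro kit was used for RNA and SMART-Seq v4 Ultra Low Input for the libraries. STAR 2.5.3a, HOMER and mm10 were used, per the submitters' processing notes. The deposited values are FPKM that the authors made with HOMER, from sense-strand tags in RefSeq exons, 1 transcript a gene, per the file headers. The kit is not given as keeping strand; 8 of the 30 members share exon bases with a gene on the other strand, Hmgcs1, Fdft1, Lss, Cyp51, Srebf1, Scap, Elovl1 and Acsl5, so those reads cannot be assigned with certainty.

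The header names 8 tag directories and the table has 4 library columns, all used; Acss2WT was read as EV and Acss2OE as ACSS2NLS. Because FPKM are normalized, count models were not used. FPKM times gene length fell on whole tags (100% of values within 0.1 of a tag, for genes 500 to 2000 bases long and at most 50 tags), which gave the depths and tags. Replicates differed by more than counting noise (chi-square per degree of freedom 40.1 in EV and 60.7 in ACSS2NLS).

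Log2(FPKM + 1) of the 9810 genes averaging 1 FPKM or more was fitted with limma-trend (limma 3.58.1, R 4.3.3; two-sided; Benjamini-Hochberg over all genes) at a threshold of 0.05. The fit was tested on simulated data. It recovered 0.1% of simulated log2 changes of 0.5, 20.7% of changes of 1 and 71.5% of changes of 2. It made 1.7 false calls per simulated dataset. Separate mice are not named as the source of the libraries, and the p-values reflect the spread among these 4 samples, possibly a technical one. Full statistics were given for up to 2 members per role with the smallest unadjusted p and for members with separate groups and a change of at least 0.3, and 6 other lipid genes with the smallest p were named. The members and lists were chosen with earlier results of these data known. Alternatives were pseudocounts of 0.1 and 0.5, no minimum or 5 FPKM, quantile and median-ratio scaling, limma without the trend, a replicate block and leaving out each library. Shared 50-base windows and overlaps come from GENCODE M21, promoters from RefSeq.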

Additional observations from a re-analysis of the deposited data

How the results depend on the processing

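With 2 libraries a group the fit detects mainly large differences, and no member passed under any alternative except Scd2 with the replicate block. The numbers of the labels were not taken to pair the samples, since the labels give them no meaning; the deviations of same-numbered libraries correlated at 0.583 over 9810 genes. With the replicate block 229 genes passed upward and 172 downward, where 2 and 0 passed without it, and 1 member passed upward, Scd2 (log2 change 0.65, limma adjusted p = 0.0173), as did Cd36 (1.39, adjusted p = 0.000141); only 1 residual degree of freedom is left there. With no minimum on low values 38 genes passed upward and 4 downward, none of them members. Acss2 and the median of the members kept their direction under every alternative. With 1 library left out, 2 genes passed upward in each case and 0 to 9 downward, 0 members passed either way, the change of Acss2 lay between 4.09 and 4.19, and the median of the members between 0.017 and 0.18. Leaving a library out makes the lone library of its group vary, by assumption, like the other group.

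Small changes turned their sign. With a pseudocount of 0.1 Mvk had 0.0025. With quantile normalization Lss had -0.048, Hsd17b7 -0.0066, Fads1 -0.010 and Elovl1 0.0091. With 1 library left out the log2 change ranged from -0.23 to 0.22 for Mvk, -0.011 to 0.60 for Fdps, -0.042 to 0.092 for Lss, -0.12 to 0.11 for Nsdhl, -0.16 to 0.12 for Ebp, -0.38 to 0.23 for Dhcr7, -0.25 to 0.020 for Srebf1, -0.21 to 0.39 for Srebf2, -0.0082 to 0.19 for Stard4, -0.17 to 0.58 for Fasn, -0.25 to 0.34 for Fads1, -0.071 to 0.023 for Elovl1, -0.061 to 0.16 for Elovl5, -0.032 to 0.26 for Acsl4 and -0.25 to 0.053 for Acly. The other 16 members kept their sign, 13 higher and 3 lower; for those with separate groups this follows from the separation. Which of these turns come from the other cell types in the libraries was not tested.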

Other observations

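Further lipid genes of the fixed list, named here after their values were seen, were high in ACSS2NLS replicate 2. Of the 45 measured genes of that list, 22 were highest in this library, against 33.7% of all genes. Fabp5, a fatty acid carrier, was at 4.15 and 11.0 FPKM in EV, against 6.55 and 29.1 FPKM in ACSS2NLS. Nr1h3, which encodes the LXR form abundant in macrophages, was at 0.109 and 1.69 FPKM in EV, compared with 1.019 and 3.72 FPKM in ACSS2NLS. Lipa, the lysosomal lipase, was at 9.62 and 8.79 FPKM in EV, against 9.29 and 14.6 FPKM in ACSS2NLS. Acsl1 was at 1.30 and 2.33 FPKM in EV, compared with 1.275 and 3.75 FPKM in ACSS2NLS. The groups overlapped in all 4, and the part of macrophage transcripts in these values was not tested. Nr1h2, the LXR form found in most tissues, was at 32.7 to 38.2 FPKM in the 4 libraries.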
